A study of Mus musculus with 13 samples.

Results

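R-loops, stretches where a nascent RNA pairs with its DNA template, were examined over the genes of DNA repair and the Fanconi pathway. The genes were taken from the mouse GENCODE vM1 annotation, build mm9, by symbol: Fanca to Fancm, Fancd2, Brca1, Brca2, the MutS homologues (Msh) and every coding gene whose symbol begins with Rad, Xrcc or Ercc followed by a digit. The rule found 53 gene identifiers with 52 symbols among 22380 protein-coding genes, since Rad54b has 2 identifiers. It reads symbols, so the 53 include Ercc6l, Rad54l2 and Xrcc6bp1, which share a symbol stem with repair genes. They were given no repair role here. The cohesin subunits Rad21 and Rad21l are also among the 53. The rule reads no measured value, but it was chosen with earlier results of these data known.

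All libraries came from N2a cells, a mouse neuroblastoma line, transfected with scramble siRNA (siScramble) or with siRNA against DDX1, an RNA helicase, or EXOSC3, a structural subunit of the RNA exosome. The knockdowns are transient, and neither the transfection time nor the DDX1 siRNA is given in the sources used here. For DRIP-seq, genomic DNA from 3 plates of cells per siRNA was cut with 5 restriction enzymes, and the antibody S9.6 was used to enrich RNA:DNA hybrids. In 1 further library per siRNA the cut DNA was digested with RNase H, which degrades the RNA of a hybrid, before the pull-down. The 9 libraries without that digestion are called untreated.

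The labels disagree about which siRNA a library belongs to. In 12 of 12 lists the siRNA written in the peak names is not the one in the sample title, and the mismatch runs in a circle. The names say siDDX1 where the title says siScramble, siEXOSC3 where it says siDDX1, and siScramble where it says siEXOSC3. Groups here follow the titles, and libraries are called "labelled siDDX1" and so on. Any direction between 2 groups holds only if the titles are right. Values pooled over the 9 untreated libraries, the test across all 3 groups and the RNase H comparison do not depend on it. Peaks do not measure transcript levels, so they do not check either knockdown.

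Repair genes sort into pathways that handle different lesions. Nucleotide excision repair removes bulky adducts, mismatch repair corrects replication errors, and the Fanconi core complex ubiquitinates the FANCD2-FANCI pair at interstrand crosslinks. Homologous recombination, with BRCA1 and BRCA2, and end joining, with Ku and XRCC4, both repair double-strand breaks. Several of these proteins, among them BRCA1, BRCA2, FANCD2, FANCM, ERCC4 and ERCC5, are also known for limiting or processing R-loops in other cells. The data here concern R-loops at the genes that encode these proteins, not the proteins at R-loops.

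For each gene, peaks were counted over its annotated bounds extended by 1 kb on both sides, called the window. The measures are whether a library has a peak there, how many bases of the window its peaks cover (covered bases), and the highest fold enrichment of those peaks over local background, as the peak caller gave it. A peak in a window need not come from transcription of that gene, and DRIP-seq as done here has no strand. The untreated libraries held 23882 to 42571 peaks and the RNase H libraries 3811 to 8034. The fewest untreated peaks were in siScramble replicate 1 (23882) and siDDX1 replicate 2 (24167).

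Of the 53 genes, 20 had a peak in 9 of 9 untreated libraries, 24 had one in 1 to 8 libraries and 9 had none. The first share is 37.7%, where 26.2% of all protein-coding genes had a peak in 9 of 9. The last share is 17.0%, where 50.1% of all coding genes had no peak in any untreated library. In single libraries 54.7 to 71.7% of the repair genes had a peak. The repair genes are longer than coding genes in general, with a median of 32.9 kb against 15.4 kb, so the shares were also set side by side within length classes. Between 30 and 100 kb, 8 of 23 repair genes had a peak in 9 of 9 (34.8% against 32.8% of coding genes of that length), and between 10 and 30 kb 8 of 19 did (42.1% against 32.3%). The gap in genes with no peak was wider: 1 of 23 (4.35% against 36.7%) between 30 and 100 kb, and 4 of 19 (21.1% against 40.5%) between 10 and 30 kb. Under 10 kb there was no such gap, with 4 of 6 (66.7% against 65.6%). These shares are descriptions, with no test.

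The 9 identifiers with no peak in any of the 12 libraries were Fancb, Fancf and Fancg of the Fanconi core, Rad51c and Rad51ap2 of the recombination group, the shorter of the 2 Rad54b models, the meiotic cohesin gene Rad21l, Ercc6l and Xrcc6bp1. Among the other 44, the number of covered bases spanned a wide range. Xrcc6, which encodes Ku70, was the most covered in every untreated library, at 17605 to 30198 bases. Rad23b followed with a mean of 8773 covered bases, then Rad21 with 5823 and Rad9 with 5196.

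**Figure D1:**
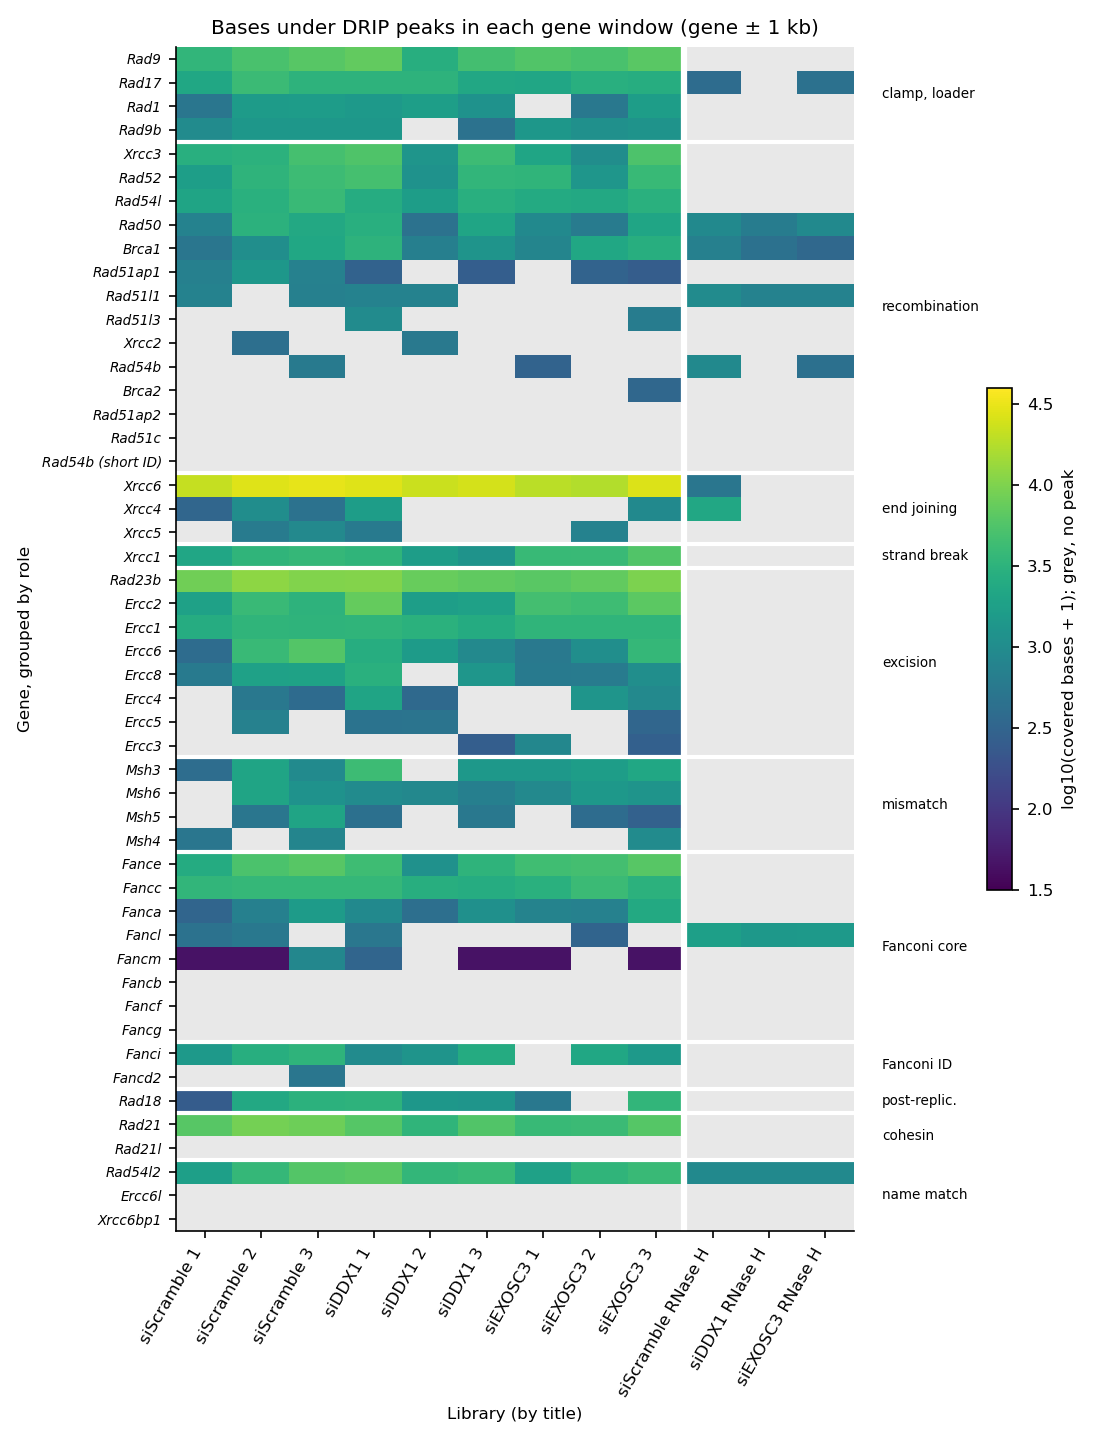
Covered bases per library, on a log10 colour scale, for the repair genes reported here, grouped by role (rows), over the 9 untreated and 3 RNase H libraries (columns), with grey where a library had no peak. Xrcc6 is the brightest row, and most rows are empty in the RNase H columns.

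The genes of the checkpoint clamp and its loader that the symbol rule found had peaks near their starts. Rad9, Rad1 and Rad9b encode clamp subunits and Rad17 the loader that places the clamp on DNA near damage. All 4 genes had a peak within 1 kb of their start in at least 7 of 9 untreated libraries (17.0% of coding genes did). Of the 4, 2, Rad9 and Rad17, had a peak in the window in 9 of 9. Hus1, a clamp gene outside the symbol rule, had a peak in 5 of 9 and at its start in 0 of 9. For Rad17, covered bases were 2237, 4067 and 3211 in the libraries labelled siScramble, 3211, 3211 and 2277 in siDDX1 and 2160, 2850 and 2687 in siEXOSC3. The 3 groups overlapped. Rad9, a short gene of 6.41 kb, was covered over 61.8% of its window on average, with 2741 to 7193 covered bases.

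In nucleotide excision repair, 5 of 9 genes had a peak in 9 of 9 libraries and none lacked one. Rad23b encodes a partner of the damage sensor XPC and had peaks at the start and at the end in 9 of 9. Ercc1, a subunit of the incision nuclease, had the narrowest range of covered bases among genes with a peak in 9 of 9: values were 2649, 3361 and 3284 in the libraries labelled siScramble, 3361, 3016 and 2530 in siDDX1, and 3361 in each of the 3 labelled siEXOSC3. The highest of the 9 was 1.33 times the lowest. The value 3361 is the whole stretch from a BsrGI cut to the edge of the window, so it is a ceiling, and the fold enrichment of Ercc1 ran from 9.37 to 23.8. Ercc2, a helicase of TFIIH, ranged from 1737 to 7418 bases. Ercc6 and Ercc8 serve transcription-coupled repair. Ercc6 spread the most among genes with a peak in 9 of 9, from 394 to 5842 bases, a 14.8-fold range. Ercc3, Ercc4 and Ercc5 had peaks in 3, 6 and 4 of 9, and Ercc8 in 8.

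Homologous recombination was uneven, with 6 of 15 identifiers at 9 of 9 libraries, 6 at 1 to 8 and 3 at none. Rad52, Rad54l and Xrcc3 were covered in 9 of 9. Brca1, which directs breaks towards recombination, had 513 to 3161 covered bases in 9 of 9. Brca2, a mediator of strand exchange, had 1 peak of 340 bases in 1 library, siEXOSC3 replicate 3. Rad51ap1 had peaks in 7 of 9, Rad51l1 in 4, and Rad51l3, Xrcc2 and the longer Rad54b model in 2 each. Rad50, a subunit of the end-resection complex, was covered in 9 of 9 with 471 to 3073 bases.

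In end joining, Xrcc6 had peaks in 9 of 9 and its partner Xrcc5, which encodes Ku80, in 4 of 9 with at most 920 covered bases. Xrcc4, the partner of DNA ligase IV, had peaks in 5 of 9, each within 1 kb of its start. Xrcc1, the scaffold of single-strand break repair, was covered in 9 of 9 with 1246 to 5678 bases. None of the 5 mismatch repair and MutS genes reached 9 of 9. Msh3 and Msh6 had peaks in 8, and Msh5 and Msh4, which act in meiosis, in 6 and 3.

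The Fanconi core was divided. Fanca, Fancc and Fance had peaks in 9 of 9, while Fancb, Fancf and Fancg had none. Fance had the highest mean fold enrichment of the repair genes, 40.8 over the 9 libraries, with single libraries between 28.1 and 64.5, followed by Fancc at 23.0. That peak lies 0.723 kb past the annotated end of Fance, over the start of the ribosomal protein gene Rpl10a, at chr17:28464236-28470606. The strongest region of Fancc, at chr13:63401219-63409102, spans the end of the gene and lies within 2010111I01Rik on the other strand. Fancm, the translocase of the pathway, had its peaks in 7 of 9 mostly through 44 bases of a region at the start of Fkbp3 that reaches into its window. Of the FANCD2-FANCI pair, Fanci had peaks in 8 of 9 and Fancd2 in 1 of 9, 515 bases in siScramble replicate 3. Rad18, a ubiquitin ligase for stalled forks, had peaks in 8 of 9, and the cohesin gene Rad21 in 9 of 9.

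Genes known in the same pathways but outside the symbol rule gave a like spread. Of 63 such genes, 28 had a peak in 9 of 9 (44.4% against 26.2% of coding genes) and 8 had none (12.7% against 50.1%). Among them Mus81, Rev1, H2afx, Apex1, Lig3 and Stra13 had peaks at the start and at the end in 9 of 9. Nbn, Palb2, Fan1, Ube2t, Nhej1, Mutyh and Cetn2 had none in the 12 libraries.

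Near gene ends, peaks covered a larger share of bases at the repair genes than at coding genes in general. Within 1 kb of the annotated end, 15.8% ± 3.07 of bases (SD, n = 9 untreated libraries) lay under peaks at the 53 repair genes against 9.94% ± 1.98 at all coding genes, and the repair genes were above in 9 of 9 libraries. Within 1 kb of the start the 2 sets did not separate, at 11.7% ± 3.55 and 11.6% ± 2.69, with the repair genes above in 4 of 9 libraries. Among genes of 10 to 100 kb, 42 repair genes against 11105 coding genes, the end values were 13.8% ± 3.30 and 10.7% ± 2.31, again above in 9 of 9, and the start values were 10.6% ± 3.11 and 12.6% ± 3.2, with the repair genes above in 1 of 9. The libraries share the same genes, so the 9 comparisons are not independent over genes and no test was made. A peak at the end in at least 7 of 9 libraries was seen in 14 repair genes (26.4% against 15.0% of coding genes) and at the start in 13 (24.5% against 17.0%). The 13 include Fancm, whose start calls are each 44 bases of a region at the start of Fkbp3. Repair genes also had a peak in at least 3 of 9 libraries more often (73.6% against 43.2%). Among genes with a peak in 9 of 9, 12 of 20 repair genes had such an end peak, against 51.9% of coding genes. For the start it was 8 of 20 against 57.2%. Peaks at the ends of Fance and Ercc1 extend over the neighbouring genes Rpl10a and Cd3eap. The part of peak frequency and of neighbours in the end values was not tested. The position of a hybrid cannot be read more finely than the restriction fragment that carries it.

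**Figure D2:**
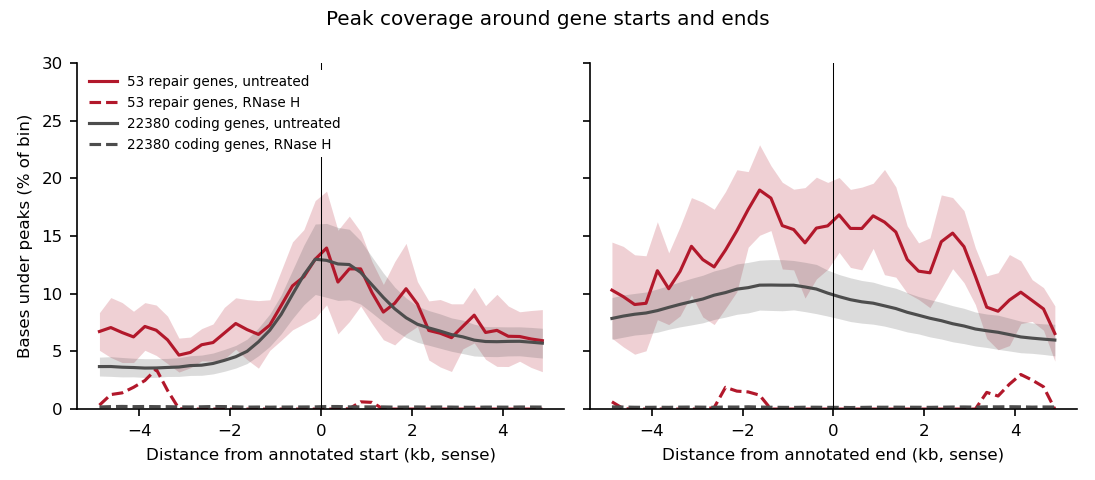
Mean share of bases under peaks (percent of each 250-base bin) against distance in kb from the annotated start (left) and end (right), for the repair genes (red) and all coding genes (grey), with bands of ± 1 SD over the 9 untreated libraries and dashed lines for the mean of the 3 RNase H libraries. The red line runs above the grey one around the gene end and crosses it around the start.

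Divergent promoters were common among the repair genes. A gene on the opposite strand starts within 1 kb of the start of 14 of the 53 (26.4% against 10.8% of coding genes). Of these 14, 6 had a start peak in at least 7 of 9 libraries (42.9%, where 35.1% of coding genes with such a partner did). Without a partner the shares were 17.9% and 14.8%. Among the 6 were Rad17 with Taf9, Brca1 with Nbr1, Ercc8 with Ndufaf2, Rad1 with Brix1 and Rad9b with Vps29, whose starts lie 284, 194, 106, 71 and 136 bases apart. For these genes the reads cannot be assigned to either of the 2 transcripts. The partnered starts of Fancb, Fancd2, Fancf, Rad51c and Rad54l had no peak in 9 libraries.

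The RefSeq promoter table held 43 promoters for 38 of the 53 identifiers, of which 43 were matched exactly to mm9. Peaks covered 6 of them in at least 7 of 9 libraries, those of Rad17, Rad23b, Xrcc6, Brca1, Rad9b and Ercc8. Upstream sequence of 4 of these is printed from mm9, on the strand of the gene and ending at the base before the RefSeq start, to show what lies under the steady promoter peaks. Capitals mark runs of 3 or more guanines on that strand, a feature known from work on R-loops elsewhere. The Brca1 stretch, chr11:101413270-101413462 on the minus strand, is the whole interval between the starts of Brca1 and Nbr1. The others are the last 250 bases before the start: Rad17 at chr13:101421017-101421266 on the minus strand, Rad23b at chr4:55362664-55362913 on the plus strand and Xrcc6 at chr15:81846549-81846798 on the plus strand.
Brca1: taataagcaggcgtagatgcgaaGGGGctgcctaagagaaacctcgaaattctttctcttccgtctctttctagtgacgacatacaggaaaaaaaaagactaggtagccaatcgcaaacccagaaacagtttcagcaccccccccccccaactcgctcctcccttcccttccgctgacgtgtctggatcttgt
Rad17: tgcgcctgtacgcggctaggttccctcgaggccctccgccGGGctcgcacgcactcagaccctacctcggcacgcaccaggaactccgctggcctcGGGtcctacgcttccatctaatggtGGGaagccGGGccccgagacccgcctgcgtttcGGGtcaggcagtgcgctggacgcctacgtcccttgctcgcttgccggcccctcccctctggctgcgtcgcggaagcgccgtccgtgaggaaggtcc
Rad23b: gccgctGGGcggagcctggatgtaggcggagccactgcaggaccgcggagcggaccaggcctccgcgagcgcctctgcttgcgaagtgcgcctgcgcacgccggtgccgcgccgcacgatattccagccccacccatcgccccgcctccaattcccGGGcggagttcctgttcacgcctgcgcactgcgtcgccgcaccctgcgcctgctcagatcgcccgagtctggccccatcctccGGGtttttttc
Xrcc6: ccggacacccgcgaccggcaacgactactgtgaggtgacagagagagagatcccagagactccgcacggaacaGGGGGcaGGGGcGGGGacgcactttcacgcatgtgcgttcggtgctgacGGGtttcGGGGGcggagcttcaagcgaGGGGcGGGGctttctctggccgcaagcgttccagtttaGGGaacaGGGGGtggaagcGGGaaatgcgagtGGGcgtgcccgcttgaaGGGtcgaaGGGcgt
The number of capitalised runs is 1 in Brca1, 5 in Rad17, 3 in Rad23b and 13 in Xrcc6. On the gene's own strand, these 4 stretches thus ranged from few runs to many. Runs of 3 or more cytosines, which are guanine runs on the other strand, number 4, 8, 7 and 3 in the same order. The peaks have no strand. The motif GGGG on the gene's strand was in 29 of 43 promoters of 300 bases (67.4%), close to the 69.0% of all 32851 promoters in the table. The CCAAT box, searched as CCAAT on both strands, was in 25 of 43 (58.1% against 37.4%), and CCGGAA, the core of sites for ETS factors, on both strands in 13 of 43 (30.2% against 14.9%). The median GC content was 58.7% against 52.7%. A match describes the letters and not a bound factor.

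Xrcc6 stood apart in how much of it was covered. The vM1 annotation gives it 52.3 kb, from a transcript that starts at base 81818265 of chromosome 15, well before the RefSeq start at 81846799, and Pppde2 lies inside this span on the other strand. Peaks covered 43.6% of the window before the RefSeq start on average and 46.5% from it on, so the coverage is not confined to the RefSeq gene. The peak over the RefSeq promoter, chr15:81843000-81847732, had the same first and last base in 9 of 9 untreated libraries and covered 4733 bases, with fold enrichments of 13.2 to 25.9. Both ends fall exactly on restriction cuts, BsrGI on the left and SspI on the right. The plus strand of mm9 around both ends is shown with the recognition sites in capitals, at chr15:81842991-81843012 and chr15:81847722-81847743.
Xrcc6 left end: tatgtgcgTGTACAtttgtgca
Xrcc6 right end: taatctaaAATATTttttctcc
No other site of the 5 enzymes lies between them (0 inside), so this peak is 1 restriction fragment, and its edges give the digest and not the borders of the hybrid.

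Edges on cuts recurred at other repair genes. The Fance peak over Rpl10a ran from 28464236 to 28469681 on chromosome 17, an SspI site to a HindIII site, in 7 of 9 libraries, with 4 further sites inside. An Ercc1 fragment, chr7:19939513-19944060, was called with the same edges in 5 of 9, with 0 sites inside. Over the windows of the 53 genes, 633 of 1048 untreated peaks (60.4%) had at least 1 edge on a cut and 107 (10.2%) had both. Cut positions made up 0.173% of the bases of these windows, with 1 site per 577 bases. In the whole series the shares were 56.5% and 7.20%.

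When the peaks of the 9 untreated libraries were merged, the repair gene windows held 248 regions. Of these, 31 had a peak in 9 of 9 libraries and 114 (46.0%) in 1 library, where 45.3% of the 69497 regions of the series were seen once. Among these 248, regions in introns were the least repeatable. They were also narrower, with a median width of 421 bases against 1012.5 for start and 1439.5 for end regions. A merged region can widen with each library that adds a peak. Regions of the whole series were not split by place, so this order is not particular to repair genes. Of 113 intronic regions 3 were in 9 of 9 libraries and 72 (63.7%) in 1, whereas 7 of 34 start regions and 10 of 34 end regions were in 9 of 9. Among the 20 genes with a peak in 9 of 9, covered bases ranged 3.41-fold between the lowest and the highest library at the median gene.

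**Figure D3:**
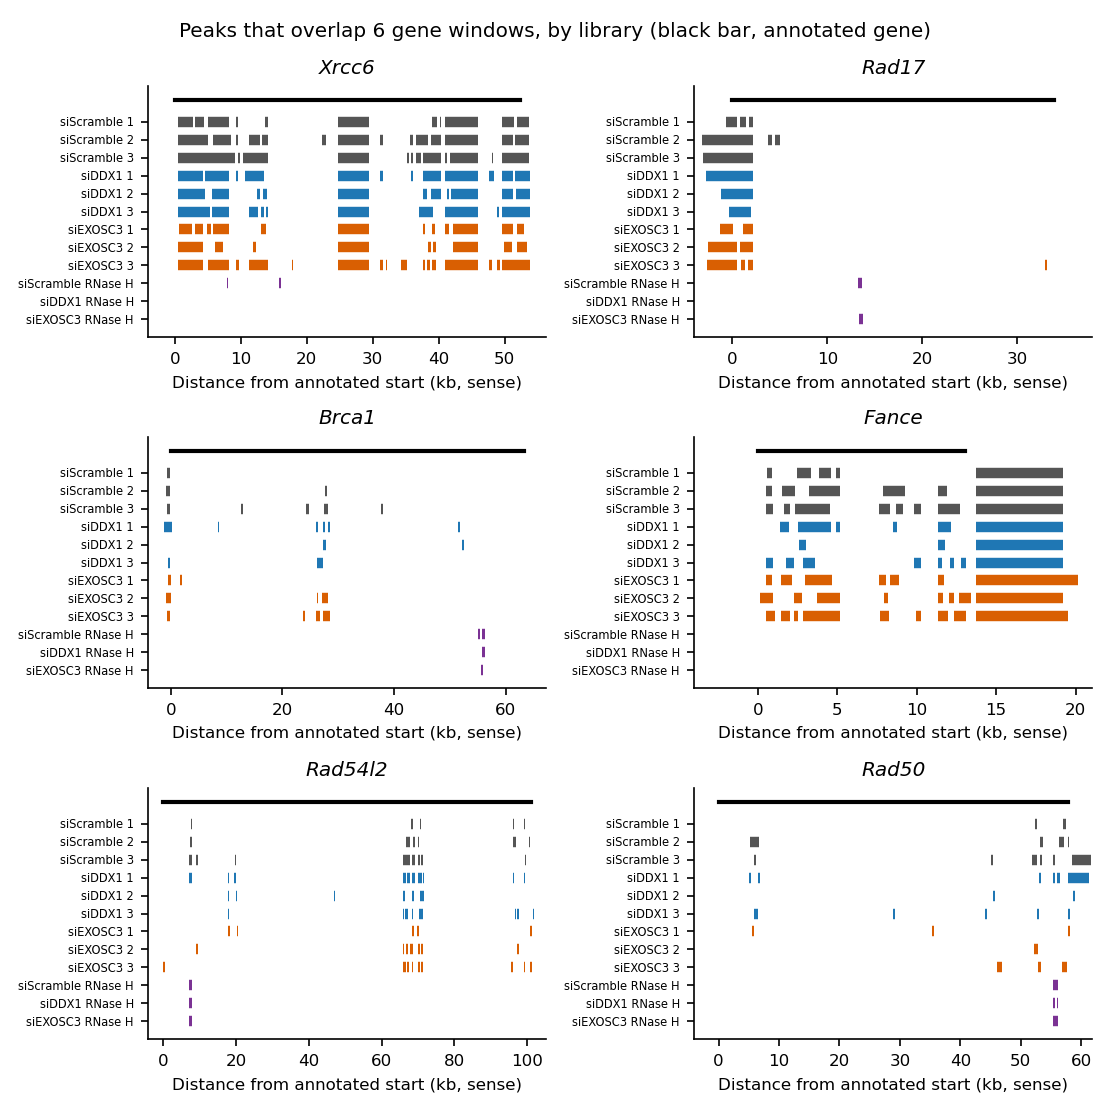
Peaks of the 12 libraries (rows, coloured by label, RNase H in purple) along 6 repair genes, against distance in kb from the annotated start. The Xrcc6 panel shows blocks with shared edges in all untreated rows, and the Rad54l2 panel shows a block at the same place in all 3 RNase H rows.

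Between the untreated groups, no repair gene passed the test in covered bases. Covered bases were tested as log2(bases + 100) with limma over the 9675 coding genes with a peak in at least 3 of 9 libraries, 39 of them repair genes. None of the 39 passed an adjusted p of 0.05 in any of the 3 pairs of groups, in either direction, and neither did any other gene (0.0% called). At an unadjusted p under 0.05, 2 repair genes passed for siDDX1 against siScramble (2.72% of all genes tested), 2 for siEXOSC3 against siScramble (5.23%) and 1 for siEXOSC3 against siDDX1 (5.10%). Without siDDX1 replicate 1 the first and the last of these counts were 6 (15.0%) and 5 (18.7%). The medians over the 39 were -0.28, -0.27 and 0.10 on the log2 scale, beside -0.14, 0.00 and 0.16 over all genes tested. Single libraries set these medians: over the 9 fits that leave out 1 library they ran from -0.53 (without siDDX1 replicate 1) to 0.017 (without siScramble replicate 3), from -0.51 (without siScramble replicate 1) to 0.036 (without siScramble replicate 3), and from -0.22 (without siDDX1 replicate 2) to 0.33 (without siDDX1 replicate 1). The exact permutation test across the 3 groups, which has 280 splits and a smallest possible p of 0.00357, put 1 of the 39 at or below 0.05 (3.24% of all genes tested), and none after adjustment over all genes. With 3 libraries a group, all these p-values measure the spread between plates of 1 cell line.

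Of the 5 repair genes with the smallest exact p, 4 are given with their values. Xrcc1 had 2164, 3410 and 3700 covered bases in the libraries labelled siScramble, 3341, 1663 and 1246 in siDDX1 and 3846, 3984 and 5678 in siEXOSC3. All 3 values labelled siEXOSC3 lay above the other 6. The difference between siEXOSC3 and siDDX1 was 1.17 on the log2 scale (SE 0.39, 95% interval 0.28 to 2.06, limma adjusted p = 0.791), with an exact permutation p of 0.0393 across the 3 groups and an adjusted p of 1.0.

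Rad51ap1, which encodes an accessory protein of recombination, had 712, 1394 and 724 covered bases in siScramble, 301, 0 and 266 in siDDX1 and 0, 303 and 261 in siEXOSC3. The libraries labelled siScramble were all above the other 6, a difference of -2.03 for each of the other labels (95% intervals -3.93 to -0.13 and -3.94 to -0.13, limma adjusted p = 1.0 and 0.913), with an exact permutation p of 0.0929. The single peaks were 250 to 655 bases long. In 1 merged region, chr6:126875115-126876387, only the 3 libraries labelled siScramble had peaks, of 462, 655 and 447 bases. The peaks of replicates 1 and 3 there do not overlap each other and are joined only through that of replicate 2. At the start of the gene, 1 peak in each of siScramble replicate 1, siDDX1 replicate 3 and siEXOSC3 replicate 2 ended at the same SspI cut. Rad21 had 6165, 8960 and 8348 bases in siScramble, 5981, 3331 and 5654 in siDDX1 and 3842, 4111 and 6014 in siEXOSC3. Again all siScramble values were above the other 6, with -0.67 for siDDX1 and -0.75 for siEXOSC3 (SE 0.28 for both, limma adjusted p = 1.0 and 0.904) and an exact permutation p of 0.107.

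Rad9b had 1000 to 1368 bases in siScramble, 1367, 0 and 469 in siDDX1 and 1134 to 1367 in siEXOSC3 (exact permutation p = 0.239). Here siDDX1 replicate 2, a library with few peaks, was the lowest, and siDDX1 replicate 1 was within the range of the other groups. The part of peak number in these values was not tested.

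**Figure D4:**
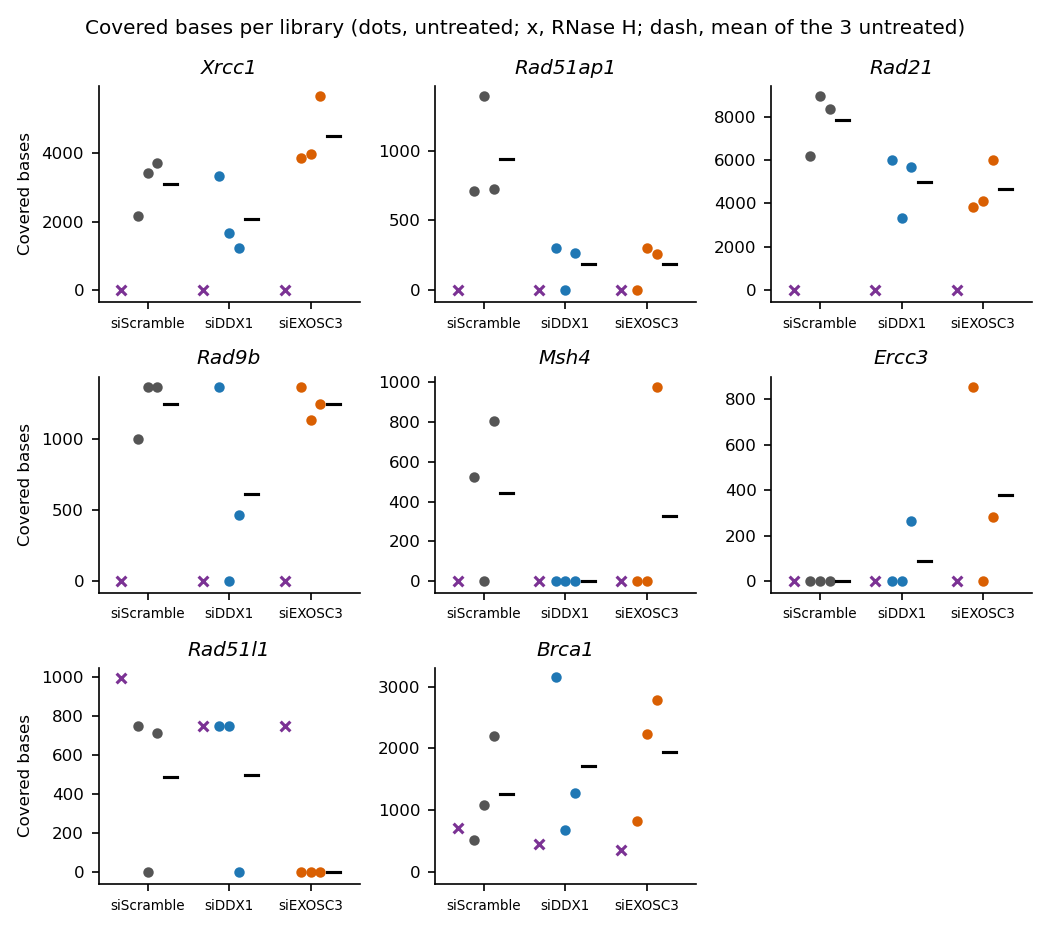
Covered bases in each library for 4 of the 5 genes with the smallest exact p across groups, the 3 genes with a peak in at least 2 of 3 libraries of 1 group and none of another, and Brca1, by label. Dots are untreated libraries, dashes their means and crosses the RNase H library of the same label. For Xrcc1, Rad51ap1 and Rad21 the 3 dots of 1 label lie above the other 6, and for Brca1 the labels overlap.

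Fold enrichment gave no call either. For the 20 repair genes with a peak in 9 of 9, log2 of the highest fold enrichment less the library median was tested with limma over 5868 genes. None passed an adjusted p of 0.05, where all genes gave 0.0% in either direction for siDDX1 against siScramble, 0.102% higher and 0.273% lower for siEXOSC3 against siScramble, and 0.256% higher and 0.341% lower for siEXOSC3 against siDDX1. The counts at an unadjusted p under 0.05 were 1, 1 and 3 of 20, beside 7.89%, 15.0% and 16.4% of all genes. Rad17, with -0.66 for siDDX1 against siScramble (95% interval -1.14 to -0.18, limma adjusted p = 0.488), and Rad52, with -0.48 for siEXOSC3 against siScramble (-0.89 to -0.07, limma adjusted p = 0.257), were among them.

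Peak calls that were all present in 1 group and all absent in another were also counted. No repair gene had a peak in 3 of 3 libraries of 1 group and 0 of 3 of another (0.970% of coding genes did for some pair), and 3 against 3 libraries cannot give an exact p below 0.1. With at least 2 of 3 against 0 of 3, 3 repair genes were found (3.59% of coding genes): Msh4, Rad51l1 and Ercc3. Msh4 had peaks at its start of 524 and 804 bases in siScramble replicates 1 and 3 and of 642 bases in siEXOSC3 replicate 3, which all ended at the same BsrGI cut, and none in siDDX1. A further peak of 336 bases in siEXOSC3 replicate 3 had no edge on a cut. Ercc3, the other TFIIH helicase, had 854 and 283 bases in siEXOSC3 replicates 1 and 3, 265 in siDDX1 replicate 3 and none in siScramble, at 3 places that do not overlap. Rad51l1, also called Rad51b, had 750 and 714 bases in siScramble replicates 1 and 3, 750 in siDDX1 replicates 1 and 2 and none in siEXOSC3. The 4 Rad51l1 peaks lie in a stretch that also has a peak in all 3 RNase H libraries.

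RNase H removed most of the signal. The 53 windows held 72428 to 142127 covered bases in the untreated libraries and 9529 (siScramble), 4219 (siDDX1) and 5376 (siEXOSC3) after RNase H. In a limma fit over 10023 genes with the siRNA as a term, 28 of 40 repair genes were lower after RNase H (73.5% of all genes tested) and 1, Fancl, was higher (3.28%). The median over the 40 was -3.27 on the log2 scale, and -3.83 over all genes. Since most RNase H values are 0, these sizes depend on the number of bases added before the log: the 2 medians were -6.12 and -6.69 with 10 bases and -1.14 and -1.40 with 1000. Rad23b, Rad21, Rad9 and Fance, at 1158 to 11800 covered bases in the untreated libraries, had 0 in 3 of 3 RNase H libraries, and Xrcc6 had 524 in the one labelled siScramble and 0 in the other 2. Differences of such genes on the log2(bases + 100) scale (-7.03 for Xrcc6 and -6.44 for Rad23b) follow the untreated coverage and have no order of their own. By role, all 4 clamp and loader genes among the 53 were lower. So were 6 of 9 in nucleotide excision repair, 6 of 9 in recombination and 3 of 5 in mismatch repair. In the Fanconi core it was 3 of 5, and in end joining 1 of 3. The RNase H libraries also held fewer peaks genome-wide, and 1 such library per siRNA gives no replicate within a group.

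**Figure D5:**
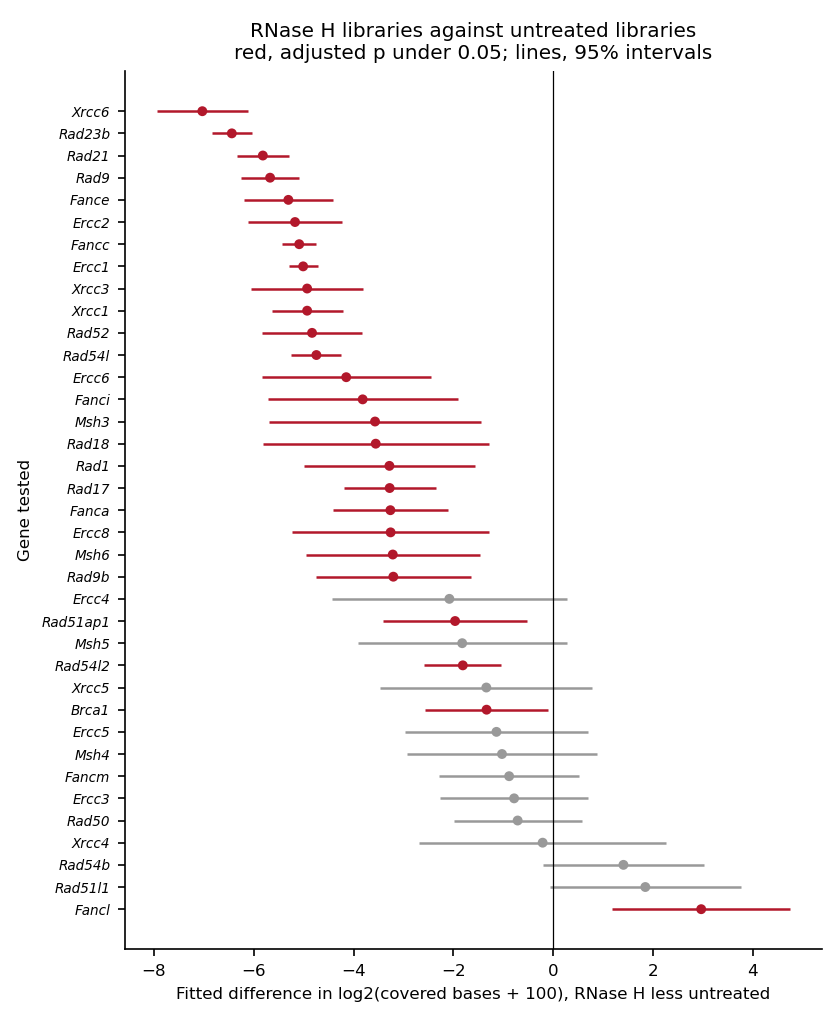
Difference in covered bases between RNase H and untreated libraries, on the log2(bases + 100) scale, with 95% intervals from limma for the tested repair genes reported here. Fancl lies above 0, the intervals of Rad51l1 and Rad54b cross 0 from above, and most genes lie below 0 past the adjusted threshold (red).

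Other falls were smaller. Brca1 had covered bases of 713, 456 and 356 after RNase H against 513 to 3161 before, and its fall of 1.34 (95% interval -2.57 to -0.11, limma adjusted p = 0.0471) was just past the threshold. It lost the call without siDDX1 replicate 1 or 3, siEXOSC3 replicate 2 or 3, or siScramble replicate 2 or 3. The region of Brca1 with a peak in all 3 RNase H libraries, chr11:101357056-101357716, overlaps an exon 55.6 kb into the gene, had no peak in any untreated library and is not at the start shared with Nbr1. Within 1 kb of that start, 8 of 9 untreated libraries had a peak and all 3 RNase H libraries had 0 covered bases. Rad50 had 927, 637 and 927 bases after RNase H and a difference of -0.71 (SE 0.57, limma adjusted p = 0.263). These bases all lie in 1 intronic region, chr11:53464612-53465538, where 2 untreated libraries had a peak. Within 1 kb of the end of Rad50, 8 of 9 untreated libraries had a peak and all 3 RNase H libraries had 0 covered bases.

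In all, 9 repair genes had a peak in at least 1 RNase H library (13.5% of coding genes did), and 5 of them, Brca1, Fancl, Rad50, Rad51l1 and Rad54l2, in 3 of 3 (3.07%). These 5 genes are 57.8 to 506 kb long, where the median coding gene is 15.4 kb. The RNase H shares were not set side by side within length classes. Fancl, the ubiquitin ligase of the core, had 1785, 1441 and 1511 covered bases after RNase H and at most 546 before, with 5 untreated libraries at 0. Its difference was 2.96 (95% interval 1.18 to 4.75, limma adjusted p = 0.00653). The retained region, chr11:26299135-26300645, overlaps an exon 13.0 kb from the start, with fold enrichments of 8.78 to 12.2 after RNase H and 4.34 to 6.15 in the 4 untreated libraries that had a peak there. Rad17, Rad54b, Xrcc4 and Xrcc6 had RNase H peaks in 2, 2, 1 and 1 libraries, the last 2 in the one labelled siScramble.

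The retained peaks of Rad51l1 and Rad54l2 had the same edges in all 3 RNase H libraries, and both edges lay on cuts. That of Rad51l1 spans 750 bases of an intron, chr12:80642455-80643204, from a HindIII to a BsrGI cut with 1 further site inside, with fold enrichments of 10.2 to 18.9 after RNase H and 6.63 to 12.9 in the 4 untreated libraries with a peak there. That of Rad54l2, a gene related to the RAD54 helicases, spans 935 bases of an intron, chr9:106683522-106684456, from an EcoRI to a HindIII cut, also with 1 further site inside, with 16.5 to 29.7 after RNase H and 4.95 to 8.44 in 4 untreated libraries. The ranges before and after the digestion do not overlap for Rad54l2 and do for Rad51l1, and fold enrichment is relative to each library's own background. The plus strand of mm9 around the cuts is shown with the sites in capitals, at chr12:80642446-80642467, chr12:80643192-80643213, chr9:106683513-106683534 and chr9:106684444-106684465, followed by the middle 300 bases of the Rad51l1 peak, chr12:80642680-80642979, where capitals mark runs of 3 or more guanines.
Rad51l1 left end: aaatccagAAGCTTgtgggagc
Rad51l1 right end: caaatggaTGTACActcttaca
Rad54l2 left end: aagaagaaGAATTCcaggccag
Rad54l2 right end: attttttcAAGCTTtcttttgt
Rad51l1 middle: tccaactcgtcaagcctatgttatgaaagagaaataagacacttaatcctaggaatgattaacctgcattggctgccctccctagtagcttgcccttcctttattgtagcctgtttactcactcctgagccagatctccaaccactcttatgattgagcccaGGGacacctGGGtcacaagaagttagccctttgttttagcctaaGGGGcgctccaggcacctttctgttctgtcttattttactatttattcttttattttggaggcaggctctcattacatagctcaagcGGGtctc
The Rad51l1 stretch holds 4 capitalised runs. Of the 31 RNase H peaks over repair genes, 22 (71.0%) had an edge on a cut and 13 (41.9%) had both, against 10.2% with both among the untreated peaks of these genes. In the whole series the share with both was 16.9% after RNase H and 7.20% before. The part of the digest in these retained peaks was not tested.

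Among the 63 other repair genes, 51 were tested for RNase H. Of these, 37 were lower (73.5% of all genes tested) and none higher (3.28%). None of the 51 was called between untreated groups in covered bases with limma. At an unadjusted p under 0.05 there were 0 in each pair, beside 2.72%, 5.23% and 5.10% of all genes tested. None of the 28 tested in fold enrichment was called either. Their counts at an unadjusted limma p under 0.05 were 3, 2 and 6, beside 7.89%, 15.0% and 16.4% of all genes tested. Of the 63, 9 had a peak in an RNase H library (14.3% against 13.5% of coding genes). Among them was Mre11a, a partner of Rad50, in 3 of 3 (3.07% of coding genes).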

How the data were processed

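DRIP-seq peak lists of 12 libraries were analysed, and the 1 input sample was not analysed here. Per the labels and the study's methods, the authors aligned reads to mm9 with Bowtie2 2.4.4 and called peaks for each library against input with MACS2 2.2.6. The submitters' processing notes also name SAMtools, HOMER 4.11 and DESeq2. The authors deposited, per peak, a linear ratio, the fold enrichment over local background, and −log10 of q. Read counts in merged peaks, which the authors tested, were not used here, so covered bases replaced them. Depth is given as peaks per library, and the number of reads is unknown here.

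Chromosome names were found in mm9 for 22 of 22 chromosomes, and no peak ran past the end of its chromosome. Gene bounds came from GENCODE vM1, and promoters from RefSeq on GRCm38.p6, placed on mm9 by exact match. Covered bases were tested as log2(bases + 100) with limma 3.58.1 in R 4.3.3 (lmFit, eBayes with trend) for genes with a peak in at least 3 libraries. The highest fold enrichment was tested as log2, less the library median, for genes with a peak in 9 of 9. Adjusted p-values are Benjamini-Hochberg over all genes tested, with a threshold of 0.05. Single genes had an exact two-sided permutation test of F over 280 splits. Overlaps, sites and counts were computed in Python 3.11.15 with numpy 2.4.6, pandas 2.3.3 and pysam 0.24.0, and figures drawn with matplotlib 3.10.9. The fits and the permutation test were tested on simulated data. Alternatives were a stricter q-value, equal numbers of peaks, other pseudocounts, windows and filters, and leaving out each library.

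Genes named with values were those that passed an adjusted p, had a peak in at least 2 of 3 against 0 of 3 libraries, had the 5 smallest exact p, were the 5 most covered or the 5 most enriched, had an RNase H peak or no peak at all, or were the most covered of their role. Other genes were named after their values were seen. Some genes are counted in the totals but not reported here by name. The members and lists were chosen with earlier results of these data known.

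Groups follow the sample titles. Same-numbered libraries share a number and no stated source, and the correlations of their deviations from the group means ran from -0.168 to 0.203, so they were not paired.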

Additional observations from a re-analysis of the deposited data

How the results depend on the processing

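None of the repair genes passed in covered bases or fold enrichment between untreated groups under any alternative run, with counts of 0 throughout, including those with the replicate number as a block (0 members in each pair). The number with a peak in 9 of 9 ran from 16 (a −log10 q of at least 5) to 24 (7 of 7, without the 2 libraries of fewest peaks, chosen after seeing the data), against 20. After RNase H, 19 to 29 repair genes were lower, with 19 at a −log10 q of at least 5, where calls were lost, among them those of Rad18, Rad51ap1, Rad54l2, Brca1, Msh3, Ercc8, Ercc6 and Msh6. The number higher was 1 in all but 1 alternative, and 1 to 2 over the single libraries left out (2 without siScramble replicate 3).

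Genes with a peak in 3 of 3 libraries of 1 group and 0 of 3 of another rose from 0 to 2 at a −log10 q of at least 5. Rad51ap1 was among them, and 0.876% of coding genes were found at this setting. With equal numbers of peaks 1 was found (Rad51ap1, where 1.26% of coding genes were). Over the single libraries left out the count ran from 0 to 2, with 2 without siScramble replicate 2 (1.43% of coding genes). In those counts the group that lost a library needed only 2 of 2 or 0 of 2. With at least 2 of 3 against 0 of 3 the range over single libraries was 2 to 6. The count was 6 without siDDX1 replicate 1 (6.36% of coding genes) and 5 without siEXOSC3 replicate 2 (3.2%). The cause was not tested. The differences between untreated groups that were followed through the alternatives (1 each for Xrcc1, Rad51ap1, Rad21 and Rad9b) and those of the genes called after RNase H kept their sign. Other differences were refitted as well but were not compared gene by gene. Without siDDX1 replicate 1, all coding genes gave 38 lower for siDDX1 against siScramble and 83 higher for siEXOSC3 against siDDX1, in place of 0, with 0 repair genes among them. At an unadjusted p under 0.05 the repair genes in covered bases ran from 0 to 6, 0 to 5 (5 without siEXOSC3 replicate 3) and 1 to 5 in the 3 pairs over the single libraries left out. With 10 or 1000 bases added in place of 100, the fall of Ercc1 after RNase H was 8.29 or 2.05 on the log2 scale. The lists give no read counts, so smaller differences than these libraries resolve may exist.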
